A study of Mus musculus with 10 samples.

Results

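The genes described here are those of the major histocompatibility complex (MHC) and of antigen presentation in 10 primary mouse pancreatic tumours. They were chosen by name: every gene whose symbol starts with H2-, apart from 2 symbols ending in -ps, together with B2m, Tap1, Tap2, Tapbp, Psmb8, Psmb9, Psmb10, Cd74, Ciita and Nlrc5. The rule found 53 of 55487 genes in the table. Of these, 38 belong to the class I pathway, 12 to the class II pathway and 3 to neither. The rule itself uses no measured value, but it was set with earlier results of these data known.

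PolyA RNA was sequenced from tumours of KPF mice, a genetic mouse model of pancreatic cancer, on the C57BL/6J background. The series compared 5 tumours labelled Grem1wt/wt with 5 tumours labelled Grem1∆/∆. Gremlin 1, the product of Grem1, is secreted and blocks bone morphogenetic proteins. Mice were 6 to 12 weeks old when used, and dosing began at an age of 5 weeks. The wild-type group received peanut oil, while mice of the deleted group were given tamoxifen (100 mg/kg body weight), in both cases daily for 5 days. Every deleted tumour therefore came from a mouse given tamoxifen, and the effects of the genotype and of the drug cannot be told apart. The labels do not name the Cre driver or the cells in which Grem1 was deleted. They call the samples bulk tissue, whereas the protocol for RNA extraction mentions cells sorted by flow cytometry, and the labels do not settle which applies.

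Total estimated counts ran from 10159891 to 18571519 per tumour. Libraries labelled deleted did not have less Grem1: they held 40.2 ± 42.1 CPM (SD, n = 5) against 19.1 ± 15.2 CPM in the wild-type libraries (CPM, counts at a common scaled depth), so these are called labelled-deleted tumours below. There were 2 libraries that stood apart, both labelled deleted. Tumour 1 held the highest value of all 10 tumours for 27.9% of the tested genes and the lowest for 29.4%, and its epithelial Epcam was at 172 CPM against 382 to 605 CPM elsewhere. Tumour 2 held intestinal transcripts, with 2529 CPM summed over 6 intestinal epithelium markers against 37.6 to 122 CPM elsewhere. Fold changes of members and list medians that leaned on tumour 1 are also given without it.

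Class I molecules present peptides from the cell interior on nearly all nucleated cells. Their peptides are trimmed by the proteasome, whose immunoproteasome subunits are induced by interferon, carried into the endoplasmic reticulum by the TAP transporter and loaded with the help of tapasin onto a heavy chain paired with beta-2 microglobulin. Class II molecules present peptides from the endosomal route and are made mainly by dendritic cells, macrophages and B cells, although other cells can be induced to make them. NLRC5 and CIITA are the related transactivators of the class I and class II genes, and both act through a protein complex assembled on a shared promoter module.

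That shared module is visible in the promoter sequences of members of both classes, which are shown because the 2 classes had opposite levels in 1 tumour below. Each sequence is the 200 bases before a RefSeq transcription start, read 5′ to 3′ on the gene's strand in GRCm38.p6. Capitals mark TGANG, the core of the X2 box to which CREB-family factors bind, and ATTGG, the inverted CCAAT sequence of the Y box to which NF-Y binds, where both lie on the gene's strand with 24 to 27 bases between their first bases. That spacing was chosen after the windows had been read. In H2-Eb1 a pair of overlapping TGANG matches is capitalised. Capitals further mark an NF-kB site, GGGGA directly followed by TTCCC, in H2-K1 and H2-D1, and the core of an interferon-stimulated response element, GAAA followed after any 2 bases by GAAA, in B2m.
H2-K1: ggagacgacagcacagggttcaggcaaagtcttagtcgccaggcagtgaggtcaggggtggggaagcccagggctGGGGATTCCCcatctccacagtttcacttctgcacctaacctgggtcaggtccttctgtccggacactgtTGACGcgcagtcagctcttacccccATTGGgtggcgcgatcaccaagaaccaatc
H2-D1: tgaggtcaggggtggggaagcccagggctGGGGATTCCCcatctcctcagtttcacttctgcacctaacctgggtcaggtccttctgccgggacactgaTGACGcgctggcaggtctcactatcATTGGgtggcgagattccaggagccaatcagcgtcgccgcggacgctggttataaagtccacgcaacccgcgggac
B2m: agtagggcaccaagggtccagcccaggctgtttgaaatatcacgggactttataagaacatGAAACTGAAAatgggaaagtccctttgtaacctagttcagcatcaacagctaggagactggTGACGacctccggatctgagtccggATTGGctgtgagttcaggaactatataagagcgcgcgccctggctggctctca
H2-Aa: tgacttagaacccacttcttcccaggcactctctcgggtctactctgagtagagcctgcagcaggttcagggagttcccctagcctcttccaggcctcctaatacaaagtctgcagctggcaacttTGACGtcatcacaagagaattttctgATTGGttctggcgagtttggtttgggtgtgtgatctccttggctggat
H2-Eb1: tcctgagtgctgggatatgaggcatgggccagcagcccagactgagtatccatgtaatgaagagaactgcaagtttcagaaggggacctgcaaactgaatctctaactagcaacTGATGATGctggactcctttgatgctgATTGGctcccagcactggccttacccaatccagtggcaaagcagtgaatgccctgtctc
H2-DMb1: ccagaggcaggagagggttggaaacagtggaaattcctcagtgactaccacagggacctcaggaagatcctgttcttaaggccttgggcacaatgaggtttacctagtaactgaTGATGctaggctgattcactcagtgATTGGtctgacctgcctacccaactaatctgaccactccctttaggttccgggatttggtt
The windows lie at chr17:34000334-34000533 (H2-K1, minus strand), chr17:35262894-35263093 (H2-D1, plus strand), chr2:122147487-122147686 (B2m, plus strand), chr17:34287824-34288023 (H2-Aa, minus strand), chr17:34305667-34305866 (H2-Eb1, plus strand) and chr17:34152991-34153190 (H2-DMb1, plus strand). The spaced pair was found in 6 of 28 class I members with a window (H2-K1, H2-D1, B2m, H2-M3, H2-Q6 and H2-Q7) and in 5 of 8 class II members (H2-Aa, H2-Eb1, H2-Eb2, H2-DMb1 and H2-DMb2). Of 27025 mouse genes with a window of the same length, 0.984% held the pair, with both motifs on the gene's strand or both on the other. The members were searched in the same way, and each with a pair had it on the gene's strand. TGANG alone was present in 80.5% of these genes and ATTGG alone in 32.7%. Both strands were searched for the remaining motifs as well. The NF-kB site was found in 4 class I members and 0 class II members, against 0.0777% of all genes. These 4 were H2-K1, H2-D1, H2-Q6 and H2-Q7, which also held the spaced pair. They are related class I genes, so their matches are not independent of each other. The interferon-response core was found in 3 class I and 0 class II members, against 2.65% of all genes. H2-Ab1, Ciita and Nlrc5 are named here without a window, and Cd74 was left out of the counts of members with a window. A match describes letters in these windows and not binding.

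Of the 53 members, 34 had enough counts to be tested: 23 of 38 in class I, 10 of 12 in class II, and H2-Ke6, whose product is a steroid dehydrogenase and not an MHC molecule. Of the 19 others, 8 had 0 counts in all 10 tumours, 5 reached at most 2 counts in any tumour and 6 were above that. The tested members passed through tumours in which they were expressed, so their number is not a property of the gene group. All 53 gene identifiers were present in GENCODE M21, and 48 of the genes lie on chromosome 17, which carries the mouse MHC. Many class I heavy chain genes are near-identical copies of each other, and so are H2-DMb1 and H2-DMb2. Estimated counts divide shared reads between such genes, so the values of single copies are uncertain.

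Between the groups, class I genes had mostly higher and class II genes mostly lower fitted values in the labelled-deleted tumours, and none of these differences reached significance after adjustment. In edgeR's quasi-likelihood test over all genes, 0 of the 34 members passed an adjusted p of 0.05, as did 0.0% of the 16565 genes tested (lowest adjusted p = 0.759). At an unadjusted p of 0.05, 1 of 34 members passed, which is 2.94% against 5.93% of all tested genes. That member was lower, as were 2.46% of all tested genes, and 0 members were higher, against 3.47%. DESeq2 also called 0 members, against 0.0224% of the 31198 genes it tested. The groups did not overlap in 0 of 34 members, against 0.93% of all genes. Log2 fold changes (deleted over wild-type) were above 0 in 22 of 23 class I genes, with a median of 0.46, and below 0 in 8 of 10 class II genes, with a median of -1.07. Over all tested genes the median was 0.03 and 55.1% were above 0. Both class medians leaned on labelled-deleted tumour 1: without it the class I median was 0.10, with 15 genes above and 8 below 0, and the class II median was -0.77, with 7 of 10 below 0. The class I median was also smaller without wild-type tumour 2, at 0.29, and without labelled-deleted tumour 3, at 0.26. Without labelled-deleted tumours 1 and 2 the class II median was -0.48 and the class I median 0.17. Other fits to all 10 tumours also gave smaller class I medians: 0.20 with the deposited log2 values, 0.26 with a replicate block and 0.28 with limma-voom, where 18 of 23 class I genes were above 0. A fit added after the data were seen, which blocked on the number in each tumour's ID, gave 0.26 for class I and -0.71 for class II.

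**Figure D1:**
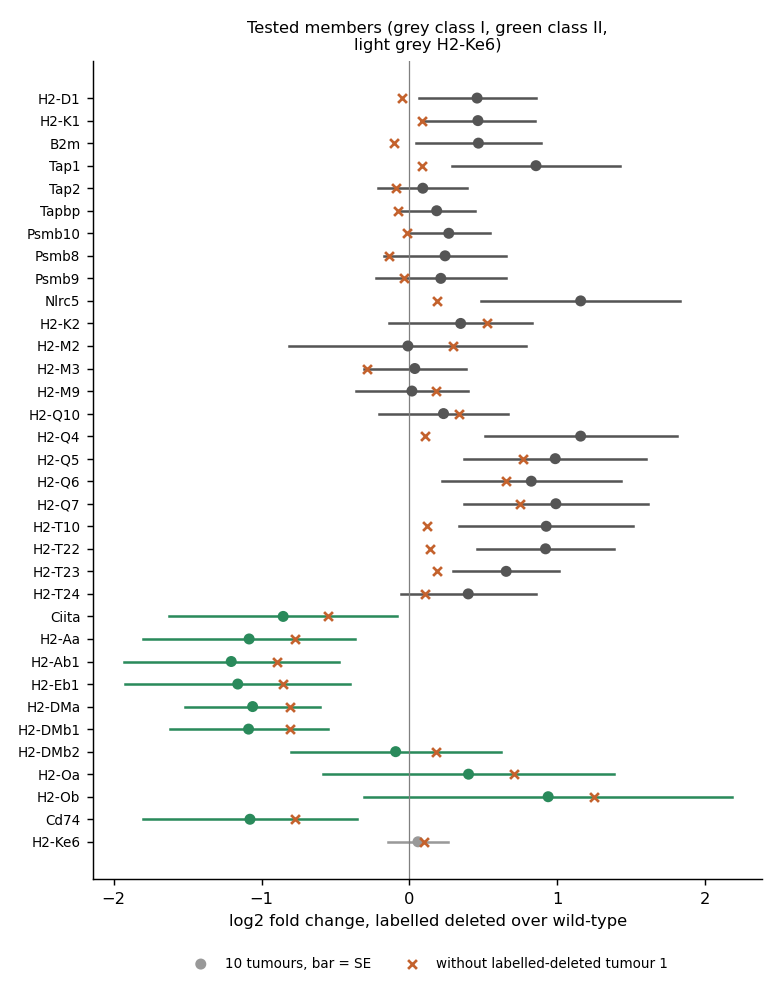
Log2 fold change of labelled-deleted over wild-type tumours for the 34 tested members, with class I in dark grey, class II in green and H2-Ke6 in light grey. Points are the fit to 10 tumours with bars of 1 SE, and crosses are the fit without labelled-deleted tumour 1, which brings the class I median from 0.46 to 0.10 and the class II median from -1.07 to -0.77.

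The classical class I heavy chains were abundant in every tumour. H2-K1 (ENSMUSG00000061232, chr17:33996017-34000347, minus strand, GRCm38) stood at 605, 260, 519, 529 and 626 CPM in wild-type tumours 1 to 5. The labelled-deleted tumours held 1340, 479, 886, 335 and 461 CPM of H2-K1. Labelled-deleted tumours 1 and 3 lay above every wild-type tumour, wild-type tumour 2 was the lowest of all, and the groups overlapped. The log2 fold change of H2-K1 was 0.46 (SE 0.38, adjusted p = 0.780 in edgeR's quasi-likelihood test), and it was 0.09 without labelled-deleted tumour 1. H2-D1 (ENSMUSG00000073411, chr17:35262730-35267499, plus strand), the other classical heavy chain of this strain, stood at 771, 426, 651, 742 and 802 CPM in the wild-type tumours. Its levels in the labelled-deleted tumours were 2029, 532, 1028, 473 and 594 CPM. The order of tumours resembled that of H2-K1, with the same pair highest and wild-type tumour 2 lowest. The log2 fold change of H2-D1 was 0.46 (SE 0.40), and -0.05 without labelled-deleted tumour 1.

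B2m, the light chain shared by all class I molecules (ENSMUSG00000060802, chr2:122147686-122153083, plus strand), had 601, 253, 465, 485 and 510 CPM in the wild-type tumours. The labelled-deleted tumours held 1471, 370, 630, 328 and 398 CPM. B2m lies on another chromosome than the heavy chains and still kept in step with them: its level divided by the sum of H2-K1 and H2-D1 stayed between 0.329 and 0.437 in the 10 tumours. Its log2 fold change was 0.47 (SE 0.42), and -0.10 without labelled-deleted tumour 1. Per kilobase of annotated exon, the mean level over the 10 tumours was 641 CPM for B2m, 312 for H2-D1 and 206 for H2-K1.

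Peptide transport and loading genes varied in the same direction but by different amounts. Tap1, one subunit of the peptide transporter, was at 38.9, 12.4, 45.4, 35.2 and 39.4 CPM in the wild-type tumours. In the labelled-deleted tumours it was at 165, 36.2, 60.7, 19.6 and 29.3 CPM. Its highest level was 13.3 times its lowest, the highest being labelled-deleted tumour 1 and the lowest wild-type tumour 2. Tap2, the other subunit, was at 46.8, 27.9, 53.3, 50.3 and 54.1 CPM in the wild-type tumours. The labelled-deleted tumours held 72.5, 31.8, 74.5, 29.8 and 39.05 CPM of Tap2. Tap2 spanned a range of 2.67 times, and labelled-deleted tumours 1 and 3 were close to each other at its top. Tapbp encodes tapasin, which bridges the transporter and the class I molecule, and stood at 172, 108, 169, 183 and 180 CPM in the wild-type tumours. Its levels in the labelled-deleted tumours were 307, 138, 209, 118 and 150 CPM. Wild-type tumour 2 was again the lowest and labelled-deleted tumour 1 the highest. The log2 fold changes were 0.86 (SE 0.57) for Tap1, 0.09 (SE 0.30) for Tap2 and 0.18 (SE 0.26) for Tapbp. Without labelled-deleted tumour 1 they were 0.08, -0.09 and -0.08.

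The 3 immunoproteasome subunits replace constitutive subunits of the proteasome. Psmb8 was at 49.8, 18.6, 49.0, 44.9 and 47.1 CPM in the wild-type tumours and at 95.0, 37.1, 63.5, 20.5 and 31.8 CPM in the labelled-deleted tumours. Psmb9 was at 19.5, 5.37, 17.2, 15.0 and 15.8 CPM, and at 27.7, 12.3, 26.6, 6.25 and 11.9 CPM. Psmb10 was at 39.9, 28.8, 44.3, 44.5 and 50.9 CPM, and at 85.7, 48.7, 52.4, 26.7 and 37.3 CPM. All 3 were highest in labelled-deleted tumour 1, and the groups overlapped for each. The constitutive subunit Psmb5, which Psmb8 replaces, ran only from 85.5 to 107 CPM. The ratio of Psmb8 to Psmb5 was 0.174 in wild-type tumour 2 and 1.02 in labelled-deleted tumour 1, with the other tumours between 0.223 and 0.742. The log2 fold changes were 0.24 (SE 0.41) for Psmb8, 0.21 (SE 0.44) for Psmb9 and 0.27 (SE 0.28) for Psmb10, and -0.14, -0.04 and -0.02 without labelled-deleted tumour 1. Psmb9 and Tap1 share exon bases, as do 14 of the tested members with some other gene, and such bases can hold reads of either gene.

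**Figure D2:**
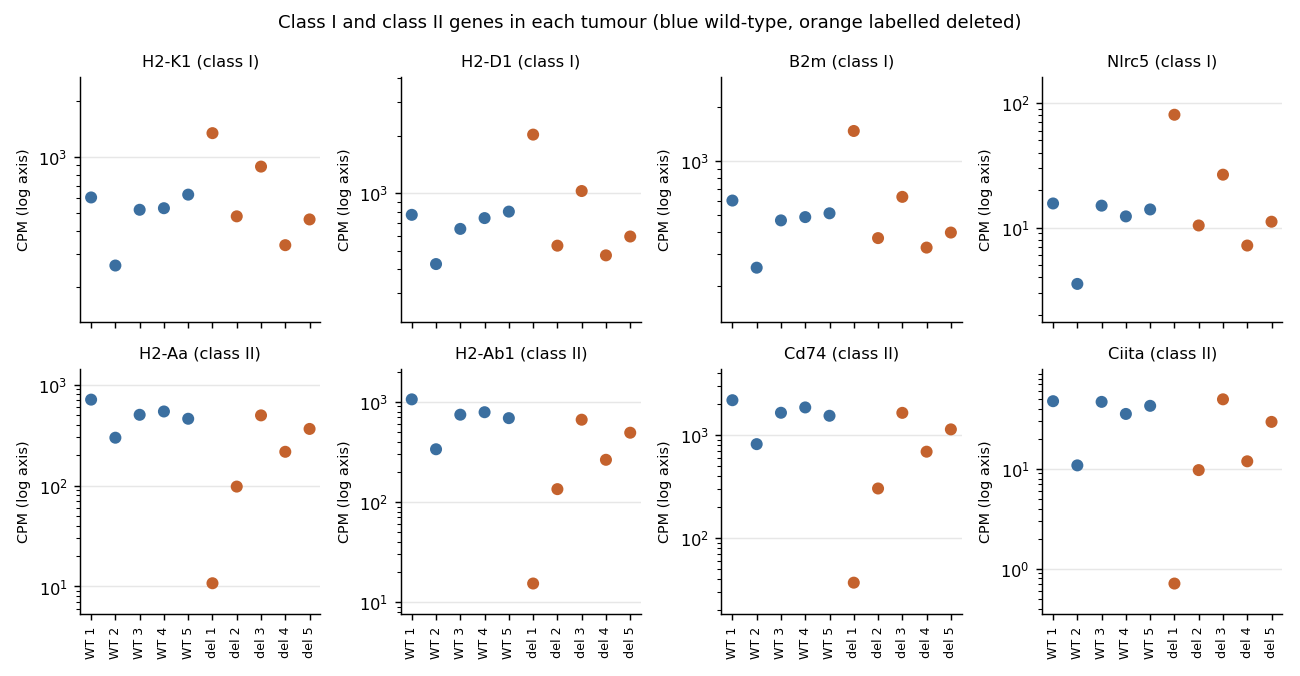
Levels of 4 class I pathway genes (upper row) and 4 class II pathway genes (lower row) in each of the 10 tumours, in CPM on a log axis, 1 point per tumour, with blue for wild-type (WT) and orange for labelled-deleted (del) tumours. Labelled-deleted tumour 1 is the highest point in each upper panel and the lowest in each lower panel, from 1340 CPM of H2-K1 to 0.71 CPM of Ciita.

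Nlrc5, the class I transactivator, spanned a wider range than its classical targets. It was at 15.6, 3.55, 15.0, 12.3 and 14.0 CPM in the wild-type tumours. The labelled-deleted tumours held 80.2, 10.4, 26.6, 7.21 and 11.2 CPM. Its highest level, in labelled-deleted tumour 1, was 22.6 times its lowest, in wild-type tumour 2. The log2 fold change was 1.16 (SE 0.67, adjusted p = 0.759), and 0.19 (SE 0.47) without labelled-deleted tumour 1.

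Among the non-classical and class I-like genes, 13 of 28 were tested, and 12 of the 13 had a log2 fold change above 0, with a median of 0.65. This median leaned on labelled-deleted tumour 1: H2-T23, the gene that held it, was at 0.18 without that tumour. The 13 genes then ran from -0.29 for H2-M3 to 0.77 for H2-Q5. The most abundant were H2-Q4, H2-T23 and H2-T22. H2-Q4 was at 74.1, 24.1, 70.5, 59.5 and 74.8 CPM in the wild-type tumours and at 416, 48.3, 115, 43.7 and 54.3 CPM in the labelled-deleted tumours. H2-T23 encodes Qa-1, a ligand of the NKG2A receptor of natural killer cells, and was at 115, 66.9, 101, 87.2 and 99.3 CPM, and at 312, 109, 146, 73.8 and 98.1 CPM. H2-T22, a ligand of some gamma-delta T cell receptors, was at 50.5, 35.1, 46.6, 42.8 and 43.4 CPM, and at 221, 43.4, 63.9, 41.2 and 44.6 CPM. In all 3 genes labelled-deleted tumour 1 stood above every other tumour, and 1 or more of the other labelled-deleted tumours lay within the wild-type range. The log2 fold changes were 1.16 (SE 0.65) for H2-Q4, 0.65 (SE 0.36) for H2-T23 and 0.92 (SE 0.46) for H2-T22. Without labelled-deleted tumour 1 they were 0.10, 0.18 and 0.14. H2-T10, a close relative of H2-T22, and H2-T24 were also highest in labelled-deleted tumour 1, at 15.7 and 9.70 CPM against at most 6.32 and 7.80 CPM elsewhere. So was H2-M3, which presents formylated peptides, at 23.4 CPM against at most 17.2 CPM.

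H2-Q5, H2-Q6 and H2-Q7, the last of which encodes the Qa-2 antigen, were highest in labelled-deleted tumour 3 instead. H2-Q7 was at 41.7, 7.47, 41.9, 18.9 and 42.9 CPM in the wild-type tumours and at 98.5, 20.8, 127, 21.9 and 35.8 CPM in the labelled-deleted tumours. H2-Q6 ran from 4.65 CPM in wild-type tumour 2 to 67.9 CPM in labelled-deleted tumour 3, and H2-Q5 from 0.82 to 14.9 CPM in the same tumours. Their log2 fold changes were 0.99 (SE 0.62) for H2-Q7, 0.82 (SE 0.61) for H2-Q6 and 0.99 (SE 0.61) for H2-Q5, and 0.74, 0.66 and 0.77 without labelled-deleted tumour 1. Without labelled-deleted tumour 3 they were 0.52, 0.26 and 0.52. The low H2-K2, H2-M9 and H2-Q10 reached at most 10.01, 2.46 and 9.30 CPM, with log2 fold changes of 0.35 (SE 0.49), 0.02 (SE 0.38) and 0.23 (SE 0.44). H2-M2 differed from the rest of class I. It was at 19.5, 3.37, 14.2, 4.76 and 19.9 CPM in the wild-type tumours and at 0.44, 11.8, 20.5, 4.96 and 23.4 CPM in the labelled-deleted tumours. It was the only tested class I member that was lowest in labelled-deleted tumour 1.

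A further 3 class I-like genes, H2-T3, H2-Q2 and H2-Q1, were expressed almost only in labelled-deleted tumour 2 and were too rare elsewhere to be tested. H2-T3, which encodes the thymus leukaemia antigen known from intestinal epithelium, had 456 counts there, or 32.4 CPM, 1 count in labelled-deleted tumour 1 and 0 counts in the other 8 tumours. H2-Q2 was at 100.3 CPM in labelled-deleted tumour 2 and at most at 1.61 CPM elsewhere. H2-Q1 was at 18.1 CPM there and at most at 0.18 CPM elsewhere. H2-Bl, also not tested, was highest in this tumour, at 4.68 CPM, and was present in every other tumour at 0.08 to 0.82 CPM. This is the tumour in which the intestinal markers summed to 2529 CPM, with Apoa4 at 897 CPM and Sis at 293 CPM. The part of these transcripts in the 4 class I-like genes was not tested. The classical class I genes H2-K1 and H2-D1 were within the range of the other tumours there, at 479 and 532 CPM.

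**Figure D3:**
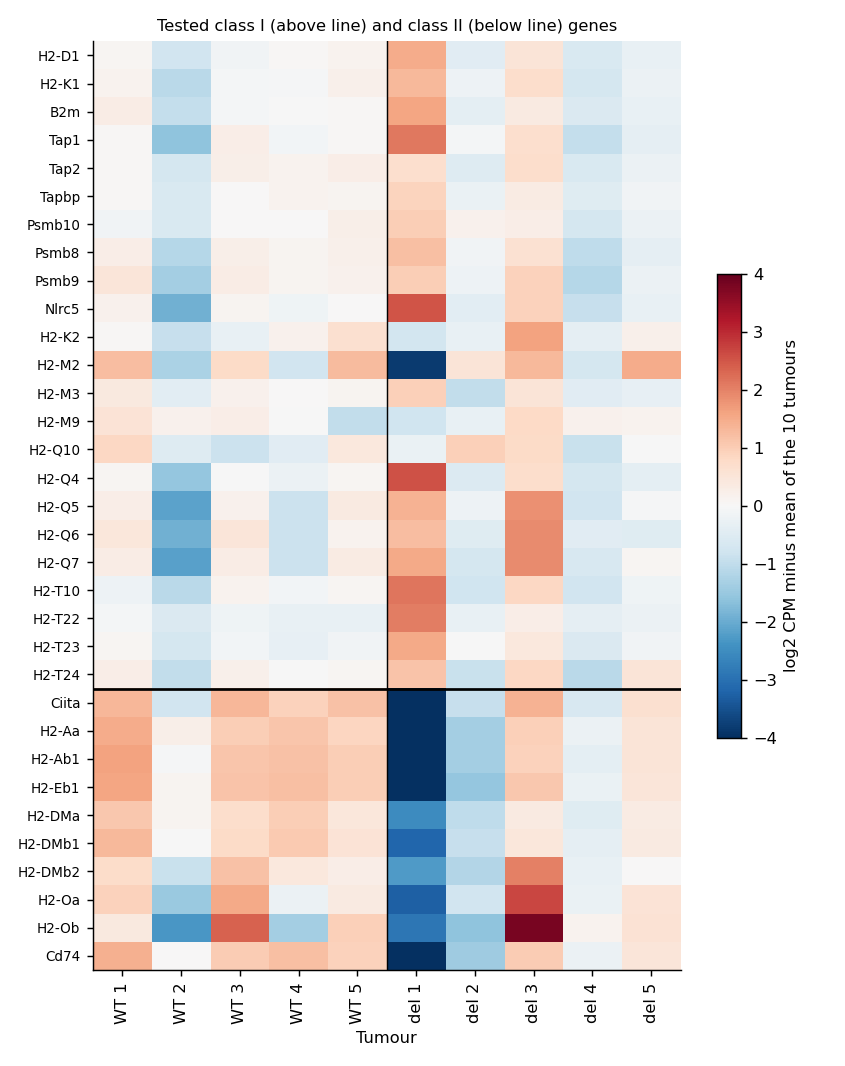
Log2 CPM of 23 tested class I genes (above the horizontal line) and 10 tested class II genes (below it) in each tumour, minus the mean of the gene over the 10 tumours, on a colour scale cut at -4 and 4. The column of labelled-deleted tumour 1 is red for most class I genes and blue for all class II genes, whereas the column of wild-type tumour 2 is blue for most class I genes.

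Over the 10 tumours the classical class II chains varied over a far wider range than H2-K1 and H2-D1, mostly through labelled-deleted tumour 1. Outside that tumour H2-Aa ran from 97.6 to 709 CPM and H2-K1 from 260 to 886 CPM. The class I-like H2-M2 also varied widely, with a highest level 52.6 times its lowest. H2-Aa, the alpha chain of I-A (ENSMUSG00000036594, chr17:34282744-34287823, minus strand), was at 709, 297, 501, 541 and 458 CPM in the wild-type tumours. The labelled-deleted tumours held 10.8, 97.6, 495, 216 and 363 CPM of H2-Aa. Labelled-deleted tumour 1 was far below every other tumour, labelled-deleted tumours 2 and 4 were below the wild-type range, and tumours 3 and 5 were within it. H2-Ab1, its beta chain (ENSMUSG00000073421, chr17:34257689-34269419, plus strand), was at 1060, 336, 745, 788 and 688 CPM in the wild-type tumours. In the labelled-deleted tumours it was at 15.3, 134, 663, 264 and 492 CPM. H2-Eb1, the beta chain of I-E, was at 805, 294, 600, 629 and 530 CPM in the wild-type tumours and at 9.70, 91.8, 572, 226 and 379 CPM in the labelled-deleted tumours. The order of the tumours was alike in all 3 genes, and H2-Aa divided by H2-Ab1 stayed between 0.666 and 0.885 in all 10 tumours, labelled-deleted tumour 1 included. H2-Ea, the alpha chain of I-E, which carries an inactivating deletion in C57BL/6 mice, had 0 counts in every tumour. A count of 0 allowed up to 3 counts, or 0.160 to 0.302 CPM depending on the tumour.

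The log2 fold changes were -1.08 (SE 0.72) for H2-Aa, -1.21 (SE 0.73) for H2-Ab1 and -1.16 (SE 0.76) for H2-Eb1, and edgeR's quasi-likelihood test gave each of them an adjusted p of 0.759. On log2 CPM, the exact permutation test (two-sided) gave an unadjusted p of 0.0556 for H2-Aa, 0.0476 for H2-Ab1 and 0.0556 for H2-Eb1. Without labelled-deleted tumour 1 the log2 fold changes were -0.78 (SE 0.42), -0.90 (SE 0.46) and -0.85 (SE 0.47), and without tumours 1 and 2 of that group they were -0.49, -0.62 and -0.55. Whether the RNA came from bulk tissue or from sorted cells of several types, fewer cells of a type and less RNA per cell cannot be told apart in any level given here.

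Cd74 encodes the invariant chain, which holds class II molecules until they reach the endosome. It was at 2187, 818, 1651, 1860 and 1544 CPM in the wild-type tumours and at 36.8, 303, 1647, 691 and 1138 CPM in the labelled-deleted tumours. The ratio of Cd74 to H2-Ab1 stayed between 2.06 and 2.62 in the 10 tumours, so invariant chain and class II chains were low together in labelled-deleted tumour 1. Cd74 had 414 counts in that tumour and at least 4272 in each of the others. Its log2 fold change was -1.08 (SE 0.72), and -0.77 without labelled-deleted tumour 1. Per kilobase of annotated exon the mean levels over the 10 tumours were 707 CPM for Cd74, 213 for H2-Eb1, 202 for H2-Ab1 and 97.1 for H2-Aa.

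H2-DMa, H2-DMb1 and H2-DMb2 encode H2-M, which exchanges the invariant chain fragment for antigenic peptide. H2-DMa was at 129, 65.6, 99.5, 122 and 83.8 CPM in the wild-type tumours and at 10.6, 30.2, 78.1, 43.5 and 77.0 CPM in the labelled-deleted tumours. H2-DMb1 was at 129, 51.6, 89.8, 109 and 76.1 CPM, and at 5.69, 27.4, 72.3, 41.3 and 67.6 CPM. For both genes labelled-deleted tumours 1, 2 and 4 lay below every wild-type tumour, and labelled-deleted tumours 3 and 5 lay within the wild-type range. H2-DMa had the lowest unadjusted p of all members, with a log2 fold change of -1.06 (SE 0.45, unadjusted p = 0.041 and adjusted p = 0.759 in edgeR's quasi-likelihood test, exact permutation p = 0.0317). H2-DMb1 was at -1.09 (SE 0.53, adjusted p = 0.759 in edgeR, exact permutation p = 0.0397). These and H2-Ab1 were the 3 of 34 members with an unadjusted exact permutation p under 0.05, which 6.32% of all tested genes reached. Without labelled-deleted tumour 1 H2-DMa and H2-DMb1 were both at -0.81, with SE of 0.31 and 0.33. H2-DMa shares 360 exon bases with Brd2 on the opposite strand, and the strand setting of the counting is not known here. H2-DMa was less reduced than the chains in labelled-deleted tumour 1, with a ratio to H2-Ab1 of 0.692 against 0.118 to 0.225 in the other tumours.

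H2-DMb2 and the genes of H2-O, the inhibitor of H2-M known from B cells, had a different order of tumours. H2-DMb2 was at 16.9, 5.37, 22.6, 13.5 and 12.0 CPM in the wild-type tumours and at 1.96, 4.40, 41.5, 8.11 and 10.3 CPM in the labelled-deleted tumours. H2-Ob, the beta chain of H2-O, was at 3.85, 0.46, 15.6, 1.04 and 5.75 CPM, and at 0.27, 0.85, 42.4, 3.20 and 4.47 CPM. H2-Oa, its alpha chain, was at 2.59, 0.36, 3.96, 1.10 and 1.71 CPM, and at 0, 0.71, 9.19, 1.07 and 1.97 CPM. Each was highest in labelled-deleted tumour 3, followed by wild-type tumour 3. H2-Eb2, under the count limit for testing, was highest in the same tumours, at 9.69 and 4.62 CPM. The summed level of 10 B cell markers was 22.7, 3.55, 133, 4.58 and 40.0 CPM in the wild-type tumours and 2.76, 7.02, 364, 26.8 and 33.6 CPM in the labelled-deleted tumours, and so was also highest in these tumours. The part of B cells in the H2-O values was not tested. The log2 fold changes were 0.94 (SE 1.24) for H2-Ob, 0.40 (SE 0.98) for H2-Oa and -0.09 (SE 0.71) for H2-DMb2. Without labelled-deleted tumour 3 H2-Ob was at -1.27 and H2-Oa at -1.03, so their direction rested on 1 library. H2-Ob amounted to 6.40% of H2-Ab1 in labelled-deleted tumour 3 and to between 0.132% and 2.10% in the other tumours.

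Ciita, the class II transactivator, had 47.6, 10.8, 46.8, 35.5 and 42.7 CPM in the wild-type tumours. The labelled-deleted tumours held 0.71, 9.72, 49.7, 11.9 and 29.5 CPM. Only 8 counts of Ciita were present in labelled-deleted tumour 1, against 119 to 605 in the others. Wild-type tumour 2 and labelled-deleted tumours 2 and 4 had similar levels near the lower end, and the groups overlapped. The log2 fold change was -0.85 (SE 0.77), and -0.55 (SE 0.55) without labelled-deleted tumour 1. Exons of Ciita overlap those of Dexi on the opposite strand over 329 bases.

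Nlrc5 and H2-K1 varied together across the tumours, and so did Ciita and H2-Ab1. Over the 10 tumours, log2 CPM of Nlrc5 and H2-K1 had a Pearson correlation of 0.98 and a Spearman correlation of 0.93. The two-sided permutation p was 2.0e-05 for the former and 0.00035 for the latter, or 4.0e-05 and 0.0014 after Benjamini-Hochberg adjustment over the 4 pairs examined. Without labelled-deleted tumour 1 and wild-type tumour 2, the tumours farthest from the median of Nlrc5, Pearson's r was 0.97. Ciita and H2-Ab1 had a Pearson correlation of 0.98 (permutation p = 2.0e-05, adjusted 4.0e-05) and a Spearman correlation of 0.83 (permutation p = 0.00439, adjusted 0.00878). Without labelled-deleted tumours 1 and 2, Pearson's r for this pair was 0.92 and Spearman's rho 0.67 (permutation p = 0.0843). Groups of 5 tumours are too small for a correlation within a group, and the genes of a pair share each tumour's library and cell makeup.

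The relation between the classes turned on labelled-deleted tumour 1. H2-K1 and H2-Ab1 had a Pearson correlation of -0.41 over 10 tumours (permutation p = 0.241, adjusted 0.241) and a Spearman correlation of 0.18 (permutation p = 0.633). Without labelled-deleted tumour 1 and wild-type tumour 2 Pearson's r was 0.54 (permutation p = 0.189). Nlrc5 and Ciita had a Pearson correlation of -0.39 (permutation p = 0.235, adjusted 0.241) and a Spearman correlation of 0.42 (permutation p = 0.233). Without the same pair of tumours Pearson's r was 0.78 (permutation p = 0.0091, adjusted 0.0121) and Spearman's rho 0.98 (permutation p = 0.00035), and without labelled-deleted tumour 1 alone they were 0.80 and 0.95. In the other 9 tumours, therefore, the transactivators ranked the tumours alike, and in labelled-deleted tumour 1 Nlrc5 was the highest and Ciita the lowest of all.

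**Figure D4:**
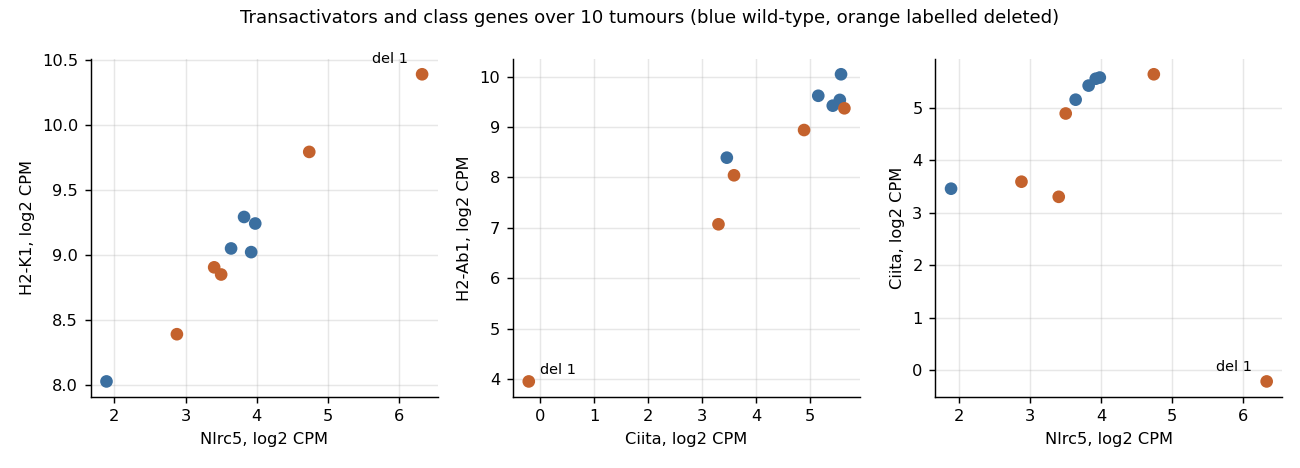
Nlrc5 against H2-K1 (left), Ciita against H2-Ab1 (middle) and Nlrc5 against Ciita (right), in log2 CPM, 1 point per tumour, blue for wild-type and orange for labelled-deleted tumours. In the left and middle panels the points follow a line (Pearson's r of 0.98 in each), and in the right panel labelled-deleted tumour 1 (del 1) lies away from the other 9, among which r was 0.80.

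Averaged over the 23 tested class I and 10 tested class II genes, the level of each tumour relative to the mean of the 10 tumours shows the same split. The class I level was 0.24, -1.08, 0.08, -0.19 and 0.15 log2 units in the wild-type tumours and 0.98, -0.29, 0.85, -0.67 and -0.09 in the labelled-deleted tumours. The class II level was 1.19, -0.51, 1.21, 0.65 and 0.75 in the wild-type tumours and -3.68, -1.21, 1.47, -0.30 and 0.45 in the labelled-deleted tumours. The class I level minus the class II level was 4.67 in labelled-deleted tumour 1 and between -1.12 and 0.93 in the other tumours, and with the deposited log2 values it was 2.92 in that tumour. Labelled-deleted tumour 3 was high in both classes, and wild-type tumour 2 and labelled-deleted tumours 2 and 4 were below the mean in both. The summed CPM of H2-Aa, H2-Ab1, H2-Eb1 and Cd74 was 2.41, 1.86, 2.14, 2.17 and 1.66 times that of H2-K1, H2-D1 and B2m in the wild-type tumours. This ratio was 0.0150, 0.454, 1.33, 1.23 and 1.63 in the labelled-deleted tumours. Every labelled-deleted tumour lay below the lowest wild-type tumour in this ratio, with 1.63 against 1.66 at the border, and it was chosen as a measure after the values were known.

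By order, 15 of 23 class I genes were highest in labelled-deleted tumour 1, where 27.9% of all tested genes were highest, and 6 in labelled-deleted tumour 3. Wild-type tumour 2 was lowest for 17 of 23 class I genes, against 7.68% of all tested genes. All 10 tested class II genes were lowest in labelled-deleted tumour 1, against 29.4% of all tested genes. Of these 10, 6 were highest in wild-type tumour 1 and 4 in labelled-deleted tumour 3. The median SD of log2 CPM over the 10 tumours was 0.72 for class I and 1.79 for class II genes, against 0.30 for all tested genes. These SDs include labelled-deleted tumour 1 and were not taken without it. H2-Ke6, which lies in the same chromosomal region and has another function, stayed between 12.5 and 26.3 CPM.

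**Figure D5:**
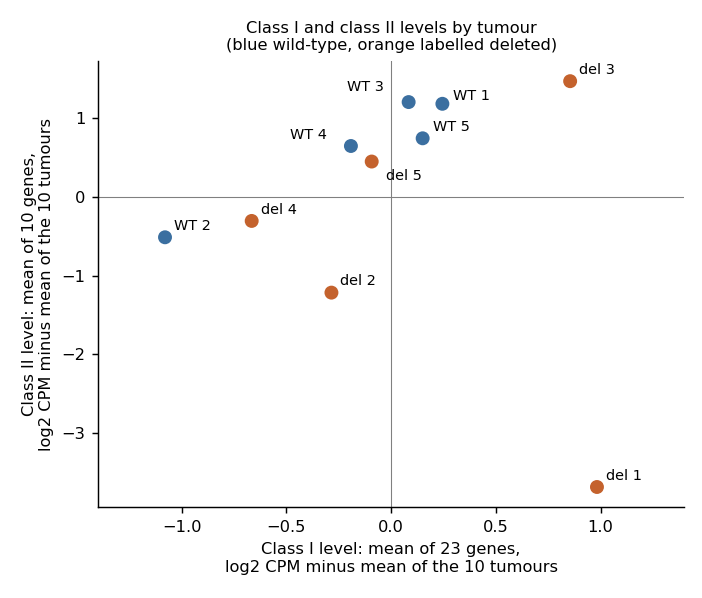
Class I level (mean of 23 genes) against class II level (mean of 10 genes) of each tumour, in log2 CPM minus the mean of the 10 tumours, blue for wild-type (WT) and orange for labelled-deleted (del) tumours. Of the other 9 tumours, wild-type tumour 2 and labelled-deleted tumours 2 and 4 lie below the mean in both classes. Wild-type tumour 4 and labelled-deleted tumour 5 lie below it in class I and above it in class II, and the rest lie above it in both. Labelled-deleted tumour 1 lies apart at 0.98 on the class I axis and -3.68 on the class II axis.

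Markers of the cells that make class II molecules were compared with the class II levels. All 11 macrophage markers had log2 fold changes below 0, with a median of -0.49, 3 of them at an unadjusted p under 0.05 (5.93% of all tested genes) and 0 at an adjusted one. The median was -0.37 without labelled-deleted tumour 1, with 10 of 11 below 0. Their summed level was 3315 to 5725 CPM in the wild-type tumours and 1762 to 4494 CPM in the labelled-deleted tumours, lowest in labelled-deleted tumour 1. None of the 11 was at 0 in any tumour. In labelled-deleted tumour 1 the complement gene C1qa was at 337 CPM, above 286 CPM in labelled-deleted tumour 2. Cd68 was at 74.9 CPM, within the range of the other tumours, whereas lysozyme (Lyz2) was at 383 CPM against 1231 to 2834 CPM elsewhere. Csf1r, Adgre1 and Ms4a7 were likewise lowest there, at 96.4, 27.5 and 6.76 CPM against at least 215, 35.9 and 7.29 CPM elsewhere. The remaining markers of the list were not lowest in that tumour. Dividing the summed class II level (the 3 chains and Cd74) by the summed macrophage level gave 0.0412 in labelled-deleted tumour 1, 0.244 in labelled-deleted tumour 2 and 0.483 to 0.978 in the other 8. The class II level of labelled-deleted tumour 1 was thus further below the other tumours than the macrophage list was. All 8 epithelial and all 5 endothelial markers also had log2 fold changes below 0, with medians of -0.46 and -0.43. Without labelled-deleted tumour 1 these medians were -0.31 and -0.24. In that tumour the epithelial, fibroblast and endothelial sums were the lowest too, at 1869, 8004 and 120 CPM. Elsewhere they were at least 3589, 14739 and 204 CPM. Of 7 fibroblast markers 4 were below 0, and the acinar sum was not lowest there. Cd68, Csf1r, Adgre1 and Ms4a7 were chosen after their values were seen.

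The 12 dendritic cell markers summed to 64.1 CPM in labelled-deleted tumour 1 and to between 167 and 355 CPM in the others, with 7 of 10 tested markers below 0 and a median of -0.17. Without that tumour 5 of 10 were below 0 and the median was 0.0050. Itgax, the most abundant of them, which macrophages also express, was at 4.27 CPM there and at 57.3 to 188 CPM elsewhere. The class II level was 1.13 times the summed dendritic cell level in labelled-deleted tumour 1, 3.52 times in labelled-deleted tumour 2 and 8.36 to 14.6 times in the others. All 9 tested B cell markers were above 0, with a median of 1.12 (1.43 without labelled-deleted tumour 1), and among the list's markers Fcer2a was at 0 in some tumours. T and natural killer cell markers summed to between 6.29 and 90.0 CPM. In labelled-deleted tumour 1 the cytotoxic genes Gzmb and Prf1 were at 19.3 and 19.4 CPM against at most 4.12 and 1.89 CPM elsewhere. The T cell markers of that list did not follow them. Cd4 and Trac were lowest in that tumour, at 1.07 and 0.18 CPM. Cd8a was at 0.36 CPM there and at 0.27 to 14.7 CPM elsewhere. The part of these cells in the class levels was not tested.

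The summed level of 13 type I interferon-induced genes outside the MHC had the same highest and lowest tumour as H2-K1. All 13 type I interferon-induced genes had a log2 fold change above 0, with a median of 2.34, 7 of them at an unadjusted p under 0.05 (5.93% of all tested genes) and 0 at an adjusted one. The median was 0.28 without labelled-deleted tumour 1, with 10 of 13 above 0 and 0 at an unadjusted p under 0.05, whereas leaving out labelled-deleted tumour 2 as well gave 0.06, with 8 of 13 above 0. Their summed level was 194, 37.6, 144, 145 and 143 CPM in the wild-type tumours and 2382, 248, 221, 75.8 and 122 CPM in the labelled-deleted tumours. Labelled-deleted tumour 1 stood far above the others, and wild-type tumour 2 and labelled-deleted tumour 4 were the lowest. Irf7, a transcription factor of this response, was at 451 CPM in labelled-deleted tumour 1 and at 5.37 to 56.7 CPM elsewhere, and Ifit3 was at 421 CPM against 2.91 to 27.1 CPM. In the list of the interferon gamma axis 6 of 12 tested genes were above 0 and 6 below, with a median of 0.03 (-0.02 without labelled-deleted tumour 1). The chemokine Cxcl10 was at 60.7 CPM in labelled-deleted tumour 1 and at most at 11.5 CPM elsewhere. The receptor chain Ifngr1 was at 66.6 CPM in that tumour and at 108 to 187 CPM in the others. Ifng itself stayed at or below 0.14 CPM in every tumour. The part of either interferon in the class I and class II levels was not tested.

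Genes of general peptide supply differed little between the groups. The 10 genes of peptide supply and class I folding had 6 log2 fold changes above 0 and 4 below, between -0.14 and 0.13, with a median of 0.06 and 0 called (-0.03 and 6 of 10 below 0 without labelled-deleted tumour 1). Their summed level ran only from 2311 to 2871 CPM. Among them the chaperones Canx, Calr and Pdia3 ran from 372 to 475, from 667 to 921 and from 694 to 901 CPM. In the list of lysosomal processing and class II transcription, 6 of 12 tested genes were above 0 and 6 below, with a median of 0.01, and without labelled-deleted tumour 1 the median was -0.06 with 9 of 12 below. Rfx5, a subunit of the RFX complex that recruits CIITA to class II promoters, was at 18.2 CPM in labelled-deleted tumour 1 and at 17.9 to 27.1 CPM elsewhere. The lysosomal reductase Ifi30 was at 70.7 CPM there against 99.4 to 243 CPM, with a log2 fold change of -0.65 (SE 0.26, unadjusted p = 0.028 and adjusted p = 0.759 in edgeR; -0.51 without that tumour), and cathepsin S (Ctss), which cleaves the invariant chain, was at 380 CPM against 481 to 900 CPM. Cathepsin L (Ctsl) was highest there, at 1342 CPM against 546 to 829 CPM. Rfx5 was chosen after its values were seen.

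Class I-like genes outside the H2- names did not share the pattern of the H2- class I genes. Of 8 tested, 7 had a log2 fold change below 0, and the median was -0.44. Leaving out labelled-deleted tumour 1 left 6 of 8 below 0 and a median of -0.30. Cd1d1, which presents lipids to natural killer T cells, was at 25.3, 18.9, 16.3, 18.7 and 19.5 CPM in the wild-type tumours and at 9.61, 12.8, 18.5, 14.3 and 13.2 CPM in the labelled-deleted tumours, a log2 fold change of -0.53 (SE 0.18, adjusted p = 0.759 in edgeR). Hfe, a regulator of iron uptake, was at -0.45 (SE 0.19), and Fcgrt, the neonatal Fc receptor, at -0.43 (SE 0.29). These became -0.43 for Cd1d1, -0.35 for Hfe and -0.25 for Fcgrt without labelled-deleted tumour 1. Labelled-deleted tumour 1 held the lowest value of all 3, although B2m, with which their products pair, was highest there.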

How the data were processed

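PolyA RNA of 10 tumours (5 per group, grouped by title) was sequenced after KAPA mRNA HyperPrep preparation, per the labels' protocols. The authors deposited estimated counts per gene, of which 7.96% were not whole, and normalized log2 values for 25407 genes (-1.29 to 17.5), whose transformation is not named. The submitters' processing notes name HISAT2 2.2.1 and RSEM 1.3.3 along with bcl2fastq 2.0, DESeq2 1.32.0, FastQC 0.11.9 and build mm10. Annotation and strand setting were not given in the sources used here. A single count column, the one matched to labelled-deleted tumour 1, lacks the number 25 that stands in that tumour's title, and no other title shares the rest of its name. All per-sample columns were used (0 unused).

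Estimated counts were rounded. With edgeR 4.0.16 (R 4.3.3), filterByExpr at a minimum count of 10 kept 16565 of 55487 genes, scaling used TMM, and the groups were compared over all genes with the robust quasi-likelihood F test and Benjamini-Hochberg adjustment at 0.05. CPM uses scaled library sizes, log2 CPM a prior count of 2. A positive log2 fold change is higher in labelled-deleted tumours, and its SE comes from the F statistic. Single genes were also tested by exact two-sided permutation over 252 assignments, and gene pairs by 100000 permutations. Exon lengths and overlaps are from GENCODE M21, promoters from RefSeq (GRCm38.p6). Other versions were limma 3.58.1, DESeq2 1.42.0 and Python 3.11.15.

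The common biological coefficient of variation was 0.355. In simulated data for this comparison of 5 against 5, over 16349 genes, edgeR recovered 10% of genes changed 1.5-fold, 44.9% changed 2-fold, 85.4% changed 4-fold and 100% changed 8-fold. The changed genes were drawn at random from all genes, whose median SD of log2 CPM was 0.30. Class I and class II genes had median SDs of 0.72 and 1.79, so these rates do not apply to the members. Same-numbered tumours did not pair throughout: their deviations correlated at 0.07, 0.11, 0.32, -0.02 and 0.39. The same-numbered labelled-deleted tumour was the closest match of wild-type tumours 3 and 5, but not of 1, 2 and 4. The tumours numbered 3 also share the number 38 in their IDs, and those numbered 5 share 40. The least different libraries within a group had a chi-square per degree of freedom of 25.6, so no tumour was counted as a duplicate.

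Genes and lists were chosen with earlier results of these data known. Values by tumour are given for the classical MHC, B2m, transporter, immunoproteasome, H2-M, invariant chain and transactivator genes, the other tested members by range or fold change, and from each further list up to 4 genes with the smallest p and up to 4 of the most abundant. Genes outside that rule (H2-Q4, H2-T23, H2-T22, H2-Q7, H2-M2, H2-Ob and H2-Oa by tumour, and Epcam, Cd68, Csf1r, Adgre1, Ms4a7, Rfx5, Ifng and Fcer2a from the lists) were chosen after their values were seen. So were Gzma, Nkg7, Klrb1c and Ncr1 of the T and natural killer cell list. Alternatives were DESeq2, limma-voom, other scalings and count filters, a prior count of 0.5, a threshold of 0.1, a replicate block, the deposited log2 values, and leaving out each tumour or labelled-deleted tumours 1 and 2. A block on the number in the tumour ID of the titles (36 for 2 tumours, 38 and 40 for 3 each, 25 and 39 for 1 each) was added after the data were seen; the labels do not say what that number marks.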

Additional observations from a re-analysis of the deposited data

Results flagged for a closer look

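Within groups of 5 tumours, a tumour was singled out where its gap to the nearest other, divided by the range of the group, passed Dixon's critical value for log2 CPM. Of 74 group checks 12 passed, whereas chance flags about 1 in 20 (5%), and the genes are not independent of each other. Of the 12, 11 were wild-type tumour 2 lying below the other wild-type tumours, and 10 of those 11 were class I pathway genes. The gap was 0.786 of the range for H2-K1, 0.802 for Tap1, 0.78 for Tap2, 0.844 for Tapbp, 0.894 for Psmb8, 0.796 for Psmb9 and 0.838 for the transactivator Nlrc5. It was 0.797 for H2-Q4, 0.727 for H2-T10 and 0.783 for H2-T24. The class II transactivator Ciita was the remaining gene, with a gap of 0.801. The other flag was H2-T22 in labelled-deleted tumour 1, high among the labelled-deleted tumours with a gap of 0.738. No cause of these values was tested.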

How the results depend on the processing

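The count of members called was 0 in every alternative run, and all-gene calls were 0 except for 7 genes (0.0224% of 31198) with DESeq2, none of them a member. With the replicate block 0 genes were called, H2-M3 was at -0.10 and H2-Oa at -0.12, and 32 of 34 members kept their direction. The level of class I minus class II in labelled-deleted tumour 1 fell to 2.92 with the deposited log2 values. Pearson's r of H2-K1 with H2-Ab1 was 0.53 without labelled-deleted tumour 1 and 0.54 without its 2 farthest tumours; of Nlrc5 with Ciita, 0.80 and 0.78. Signs turned with limma-voom for Tap2 (-0.019), Psmb9 (-0.00078), H2-M3 (-0.18), H2-M9 (-0.0068), H2-Oa (-0.68) and H2-Ke6 (-0.014), with the deposited values for H2-M3 (-0.059) and H2-Oa (-0.040), and without scaling for H2-M2 (0.0075). With the added block on tumour ID number, in which labelled-deleted tumours 1 and 4 share their number with no other tumour and add nothing to the contrast, they turned for H2-M2 (0.62), H2-M3 (-0.25) and H2-DMb2 (0.076), and 0 genes were called. Without labelled-deleted tumours 1 and 2 they turned for B2m (-0.037), Tapbp (-0.032), Psmb10 (-0.11), Psmb8 (-0.13), H2-M2 (0.40), H2-M3 (-0.10) and H2-DMb2 (0.49). Leaving out 1 tumour at a time turned the sign at least once for H2-D1 (-0.048 to 0.62), B2m (-0.10 to 0.63), Tap2 (-0.11 to 0.22), Tapbp (-0.079 to 0.30), Psmb10 (-0.016 to 0.42), Psmb8 (-0.14 to 0.43), Psmb9 (-0.040 to 0.42), H2-K2 (-0.30 to 0.56), H2-M2 (-0.39 to 0.30), H2-M3 (-0.29 to 0.22), H2-M9 (-0.25 to 0.18), H2-Q10 (-0.019 to 0.54), H2-DMb2 (-1.19 to 0.18), H2-Oa (-1.03 to 0.83), H2-Ob (-1.27 to 1.89) and H2-Ke6 (-0.18 to 0.14). The cause was not tested.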
